A study of Mus musculus with 6 samples.

Results

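The genes described here are 40 stromal and matricellular matrix genes other than collagens, picked by symbol from the 35275 genes counted in every library. All 40 were found, and all 40 were abundant enough to be tested, among 13883 tested genes. They encode secreted proteins of the extracellular matrix, enzymes and chaperones that mature collagen and elastin, and marker proteins of fibroblasts and of the contractile cells around vessels.

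RNA came from cells sorted out of subcutaneous tumours of CT26, a mouse colon carcinoma line, grown to 1800 mm3 in BALB/C mice. Of the 3 sorted populations, Ly6G-low T1-binding cells are labelled as a myeloid subset, and Ly6G-high T1-non-binding and Ly6G-high T1-binding cells are labelled as PMN (polymorphonuclear) myeloid subsets. Ly6G is a surface antigen of neutrophils, and the sort also used binding of T1, an aptamer (a selected nucleic acid ligand). Each population has 2 libraries, 1 from each of the same 2 mice, and the ages and sexes of the mice, the other gating markers and the purity of the sorts are not given in the sources used here.

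In a tumour, matrix is laid down mostly by fibroblasts and other mesenchymal cells, and some carcinoma cells make it as well. Matricellular proteins such as SPARC and the thrombospondins signal to cells instead of building fibres, while laminins, nidogens and perlecan assemble into the basement membrane sheet. Macrophages and neutrophils make only part of this set, with fibronectin, versican and thrombospondin 1 among the matrix products known from monocytes and macrophages.

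Total counts ran from 23595976 to 28045025 per library. Levels are given as CPM, the count relative to a library size scaled by TMM factors, and differences as log2 fold changes of the edgeR fit with their standard error (SE). P-values are those of edgeR's quasi-likelihood test, adjusted over all tested genes with a threshold of 0.05. Levels of different genes are set side by side only as FPKM, which is per gene length. A bulk library cannot tell fewer cells that express a gene from less RNA in each cell. The myeloid label was checked on 16 leukocyte genes. Their summed level was 2077 and 2969 CPM in the Ly6G-low libraries, against 13982 to 25178 CPM in the Ly6G-high libraries. All 16 passed the threshold as lower in Ly6G-low cells, against T1-binding and against T1-non-binding Ly6G-high cells. Of all tested genes 24.3% and 23.8% were lower in these comparisons.

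The 3 promoter windows are shown because they belong to the members past the threshold whose window holds GGAATG, the core letters bound by TEAD factors. They are Cyr61 and Nid1, which were higher in Ly6G-low cells, and Acta2, which was lower. Each is 300 bases from RefSeq on GRCm38.p6, from 250 bases before the annotated start to 50 after it, read 5′ to 3′ on the strand of the gene. Capitals mark GGAATG or its reverse complement.
Cyr61, chr3:145649936-145650235, minus strand: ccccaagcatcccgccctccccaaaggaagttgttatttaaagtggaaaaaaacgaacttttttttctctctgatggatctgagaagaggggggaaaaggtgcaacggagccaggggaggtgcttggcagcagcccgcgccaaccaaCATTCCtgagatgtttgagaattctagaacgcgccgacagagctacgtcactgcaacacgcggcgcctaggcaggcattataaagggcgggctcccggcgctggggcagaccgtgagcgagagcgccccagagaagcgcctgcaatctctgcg
Nid1, chr13:13437352-13437651, plus strand: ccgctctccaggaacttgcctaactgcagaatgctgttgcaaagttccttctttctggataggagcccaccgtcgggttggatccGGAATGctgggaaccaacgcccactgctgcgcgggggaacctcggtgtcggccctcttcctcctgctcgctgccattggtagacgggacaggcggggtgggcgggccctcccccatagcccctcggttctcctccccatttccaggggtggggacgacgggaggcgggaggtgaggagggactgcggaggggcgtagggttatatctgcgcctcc
Acta2, chr19:34255324-34255623, minus strand: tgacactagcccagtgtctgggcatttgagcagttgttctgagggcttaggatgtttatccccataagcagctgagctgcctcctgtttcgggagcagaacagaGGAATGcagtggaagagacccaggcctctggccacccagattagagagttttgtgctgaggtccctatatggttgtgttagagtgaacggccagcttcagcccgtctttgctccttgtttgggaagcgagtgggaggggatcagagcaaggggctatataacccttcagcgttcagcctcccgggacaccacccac

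The capitals begin 103 bases before the start in Cyr61, where they are read as the reverse complement, 165 bases before it in Nid1 and 146 bases before it in Acta2. Windows were found for 23 of the 40 members, and 4 of them (the 3 above and Mfap2) held GGAATG on either strand. Of 27025 genes with a window 16.6% held it, and of all 32851 windows 14.7% did. TATAAA was in the windows of 5 members (Cyr61, Plod1, Postn, Thbs2 and Tnc) in 15.7% of all genes with a window and in 13.6% of all windows, and in Cyr61 it began 25 bases before the start. The CArG box, the motif of serum response factor, was searched only as an exact match to CCWWWWWWGG, where W is A or T. In that form it was in none of the 23 members' windows, in 1.81% of all genes with a window and in 1.63% of all windows. The Acta2 window holds the near matches ccctatatgg and ccttgtttgg, each with a C or G among the inner letters, which the search did not count. These matches describe letters in a window and were not set against expression.

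Among the members past the threshold, more were higher than lower in Ly6G-low cells against either Ly6G-high population. Against Ly6G-high T1-binding cells, 20 of the 40 members were higher and 5 lower, where 18.8% of all tested genes were higher and 24.3% lower (43.0% in all). Against Ly6G-high T1-non-binding cells, 15 were higher and 4 lower, where 16.1% of all tested genes were higher and 23.8% lower (39.8% in all). The same shares of all tested genes apply to the counts given below by role. The median log2 fold change of the members was 1.09 and 0.91 in these comparisons, and that of all tested genes 0.03 and 0.09. The comparisons share the same Ly6G-low libraries and are not independent of each other.

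The counts depend on single libraries and fell without some of them. Such fits leave fewer residual degrees of freedom, and the share of all tested genes called in them is not given here. The median log2 fold change of the members against T1-binding cells was 1.07 without Ly6G-low replicate 1 and 1.13 without Ly6G-low replicate 2. It was 0.78 without Ly6G-high T1-binding replicate 1. For all tested genes the medians in these fits were 0.01, -0.07 and 0.03. Against T1-non-binding cells the median of the members was 0.81 without Ly6G-low replicate 1 and 0.79 without Ly6G-low replicate 2. It was 0.70 without T1-non-binding replicate 1. For all tested genes these medians were 0.07, 0.03 and 0.12. With library totals in place of TMM factors the counts were 23 higher and 3 lower against T1-binding cells, where 37.5% of all tested genes were higher and 16.1% lower (53.6% in all). Against T1-non-binding cells they were then 27 and 3, where 52.3% were higher and 13.6% lower (65.9% in all).

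**Figure D1:**
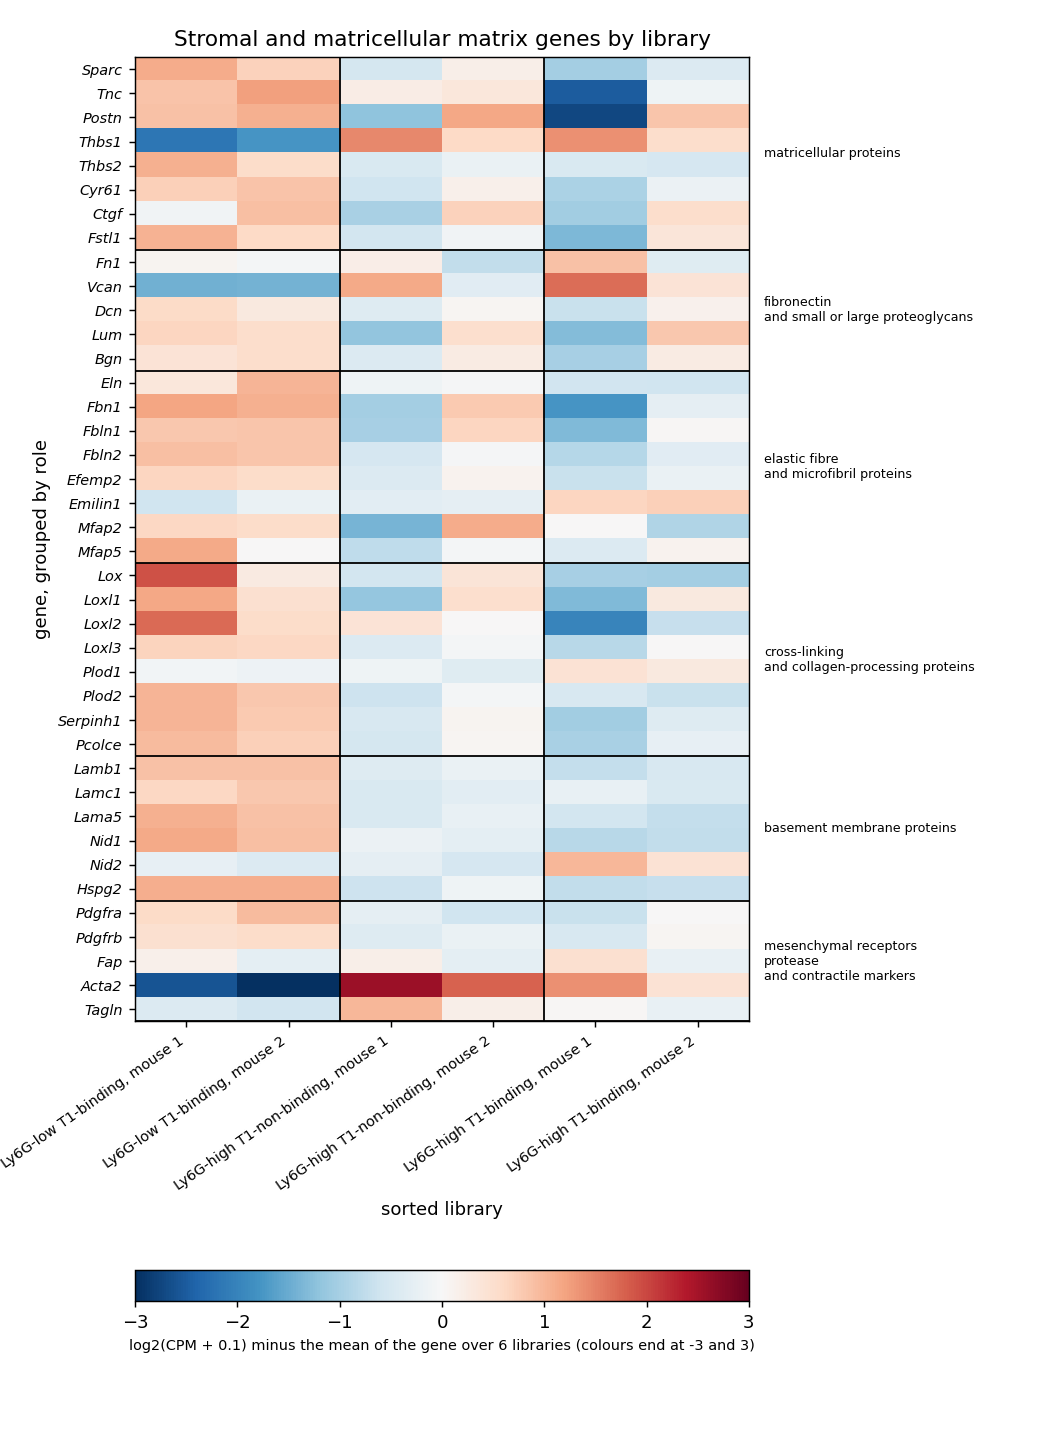
Levels of the 40 matrix genes in the 6 libraries, as log2(CPM + 0.1) minus the mean of each gene, with red above and blue below that mean. Rows are grouped by role and columns by population and mouse. The laminin genes, Nid1 and Hspg2 are red in the 2 Ly6G-low libraries, while Thbs1, Vcan and Acta2 are blue there.

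The level of both Ly6G-low libraries lay above that of all 4 Ly6G-high libraries for 24 members (60%), against 36.7% of all tested genes. It lay below all 4 for 4 members (10%), namely Thbs1, Vcan, Acta2 and Tagln, against 32.6% of all tested genes. For the other 12 the populations overlapped. Within mouse 1, 31 of the 40 members were at a higher level in Ly6G-low than in Ly6G-high T1-binding cells (median log2 difference 1.52), and within mouse 2, 30 were (median 0.78). Against T1-non-binding cells the values were 33 members and 1.27 in mouse 1, and 31 members and 0.48 in mouse 2. The shares of all tested genes at a higher level within each mouse are not given here, so these counts have no background.

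Matricellular proteins held both directions. Sparc (ENSMUSG00000018593, chromosome 11, 55394500 to 55423183 on mm10) encodes a collagen-binding protein of remodelling tissue. Its level was 411 and 306 CPM in the Ly6G-low libraries of mouse 1 and mouse 2, 133 and 216 CPM in T1-non-binding cells, and 93.5 and 142 CPM in T1-binding Ly6G-high cells. Both Ly6G-low libraries lay above the other 4, and within each Ly6G-high population mouse 2 was the higher. Sparc was 3.04-fold higher in Ly6G-low than in Ly6G-high T1-binding cells (log2 fold change 1.60 ± 0.33 SE, adjusted p = 0.0106) and 2.06-fold higher than in T1-non-binding cells (1.04 ± 0.33 SE, adjusted p = 0.0438). The second call was lost with RLE factors (adjusted p = 0.0560).

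Cyr61 (also named Ccn1; chromosome 3, 145646976 to 145649981), which encodes a secreted integrin ligand induced by growth factors, was at 525 and 585 CPM in Ly6G-low cells, 214 and 359 CPM in T1-non-binding cells and 166 and 286 CPM in T1-binding Ly6G-high cells. The Ly6G-low libraries were again the highest. It was 2.45-fold higher than in T1-binding cells (log2 fold change 1.30 ± 0.36 SE, adjusted p = 0.0268), while the difference from T1-non-binding cells did not pass (0.95 ± 0.36 SE, adjusted p = 0.0690). With mouse as a block on all 6 libraries that difference passed (1.01, adjusted p = 0.0132). Its relative Ctgf (Ccn2) differed between the mice more than between the populations. Ctgf was at 10.3 to 19.9 CPM in the 3 libraries of mouse 1 and at 30.8 CPM or more in those of mouse 2, and passed in neither comparison. With the mouse block on 6 libraries it passed against T1-binding cells (0.66, adjusted p = 0.0334), but not with the block on the 4 libraries compared.

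The thrombospondins Thbs1 and Thbs2, related secreted glycoproteins that bind CD47 and CD36, went in opposite directions. Thbs1 (chromosome 2, 118111876 to 118127133) was at 406 and 536 CPM in Ly6G-low cells, 4937 and 2775 CPM in T1-non-binding cells and 4769 and 2651 CPM in T1-binding Ly6G-high cells. Every Ly6G-high library was far above both Ly6G-low libraries. Thbs1 was 7.88-fold lower in Ly6G-low than in T1-binding cells (log2 fold change -2.98 ± 0.48 SE, adjusted p = 0.00482) and 8.19-fold lower than in T1-non-binding cells (-3.03 ± 0.48 SE, adjusted p = 0.00477). Thbs2 (chromosome 17, 14665500 to 14694235) was at 232 and 161 CPM in Ly6G-low cells, 81.4 and 97.2 CPM in T1-non-binding cells and 80.6 and 78.1 CPM in T1-binding cells. It was 2.48-fold higher against T1-binding cells (1.31 ± 0.23 SE, adjusted p = 0.00619) and 2.20-fold higher against T1-non-binding cells (1.14 ± 0.23 SE, adjusted p = 0.0110).

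Per gene length, Thbs1 was the most abundant of the 40 members in both Ly6G-high populations, at a mean of 493 FPKM in T1-non-binding and 577 FPKM in T1-binding cells. In Ly6G-low cells Cyr61 was first at 380 FPKM, followed by Fn1 at 341 FPKM, and Thbs1 was at 112 FPKM. Of the remaining matricellular genes, Tnc (tenascin C), a protein of wounds and tumour stroma, was at 14.6 and 19.1 CPM in Ly6G-low cells, 9.52 and 10.2 CPM in T1-non-binding cells and 1.34 and 7.33 CPM in T1-binding cells. It was higher than in T1-binding cells (log2 fold change 1.96 ± 0.63 SE, adjusted p = 0.0421), a call lost without a filter on low counts (adjusted p = 0.180). The value was 1.20 without T1-binding replicate 1 and 3.55 without T1-binding replicate 2. Postn (periostin), at 5.26 and 5.95 CPM in Ly6G-low cells, overlapped the other populations (0.335 to 6.45 CPM) and passed in neither comparison. Fstl1, a follistatin-like protein of the SPARC family, had log2 fold changes of 1.11 and 1.14 and passed in neither (adjusted p = 0.111 and 0.106). With the mouse block on 6 libraries it passed in both (1.27 and 1.23, adjusted p = 0.0441 and 0.0490).

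Fibronectin and the proteoglycans had 1 called member of 5, in the lower direction. Fn1 (chromosome 1, 71585520 to 71653200), which encodes fibronectin, the adhesive glycoprotein on which cells spread, was at 2133 and 1939 CPM in Ly6G-low cells, 2324 and 1220 CPM in T1-non-binding cells and 3739 and 1584 CPM in T1-binding Ly6G-high cells. All 3 populations overlapped, and mouse 1 was above mouse 2 in each. The log2 fold changes were -0.39 ± 0.50 SE against T1-binding and 0.20 ± 0.50 SE against T1-non-binding cells (adjusted p = 0.549 and 0.756). With library totals they were 0.24 and 1.10, the second past the threshold (adjusted p = 0.0240), so the sign of the first depends on the scaling.

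Vcan (chromosome 13, 89655312 to 89742509) encodes versican, a large chondroitin sulfate proteoglycan made by monocytes and fibroblasts. It was at 18.1 and 18.5 CPM in Ly6G-low cells, 110 and 39.0 CPM in T1-non-binding cells and 158 and 65.7 CPM in T1-binding Ly6G-high cells. Every Ly6G-high library was above both Ly6G-low libraries. Vcan was 6.12-fold lower than in T1-binding cells (log2 fold change -2.61 ± 0.57 SE, adjusted p = 0.0123) and 4.06-fold lower than in T1-non-binding cells (-2.02 ± 0.56 SE, adjusted p = 0.0300), and without a filter on low counts both calls were lost (adjusted p = 0.0764 and 0.137). The log2 fold change against T1-binding cells was -1.85 without T1-binding replicate 1, where the call was lost (adjusted p = 0.0523), and -3.20 without T1-binding replicate 2. Against T1-non-binding cells it was -1.10 without T1-non-binding replicate 1, with the call lost (adjusted p = 0.133).

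The small leucine-rich proteoglycans, which coat collagen fibrils, did not pass in either comparison. Dcn (decorin) was at 190 and 158 CPM in Ly6G-low cells, 99.1 and 134 CPM in T1-non-binding cells and 80.8 and 141 CPM in T1-binding cells. Bgn (biglycan) was at 50.9 and 54.8, 28.4 and 44.8, and 19.0 and 45.1 CPM in the same order. For both genes the Ly6G-low libraries were the highest, with log2 fold changes of 0.53 to 0.72 (adjusted p = 0.118 to 0.309). With the mouse block on 6 libraries Bgn passed against T1-binding cells (0.85, adjusted p = 0.0307). With library totals Dcn passed in both comparisons (1.20 and 1.37, adjusted p = 0.0367 and 0.0185), and Bgn passed against T1-non-binding cells (1.30, adjusted p = 0.0493). Lum (lumican) was at 1.30 to 5.97 CPM, with the populations overlapping.

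Of 8 elastic fibre and microfibril genes, 3 were higher and 1 lower in Ly6G-low cells against T1-binding cells, and 2 higher and 0 lower against T1-non-binding cells. Fbln2 (chromosome 6, 91212455 to 91272540), for fibulin 2, which bridges elastic fibres and basement membranes, was at 375 and 361 CPM in Ly6G-low cells, 142 and 195 CPM in T1-non-binding cells and 111 and 158 CPM in T1-binding Ly6G-high cells. Both Ly6G-low libraries stood above all others. It was 2.73-fold higher against T1-binding cells (log2 fold change 1.45 ± 0.26 SE, adjusted p = 0.00695) and 2.18-fold higher against T1-non-binding cells (1.12 ± 0.26 SE, adjusted p = 0.0178).

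Efemp2 (fibulin 4), needed for elastic fibre assembly, was at 70.3 and 65.8 CPM in Ly6G-low cells, 33.7 and 48.1 CPM in T1-non-binding cells and 28.3 and 39.2 CPM in T1-binding cells. It was 2.02-fold higher than in T1-binding cells (adjusted p = 0.0158) and 1.66-fold higher than in T1-non-binding cells (adjusted p = 0.0470). The second call was lost with RLE factors (adjusted p = 0.0650) and with the mouse block on the 4 libraries compared (adjusted p = 0.0501), and Efemp2 overlaps the coding gene Mus81. Fbn1, for fibrillin 1 of the microfibril core, was at 7.47 and 6.88 CPM against 0.880 and 2.68 CPM in T1-binding cells (4.02-fold higher, adjusted p = 0.0450), a call lost without a filter on low counts (adjusted p = 0.0885). The log2 fold change of 2.01 was 1.42 without T1-binding replicate 1, with the call lost (adjusted p = 0.188), and 2.93 without T1-binding replicate 2. Fbn1 was at 1.55 and 5.64 CPM in T1-non-binding cells and did not pass against them (adjusted p = 0.243), but did with the mouse block on those 4 libraries (adjusted p = 0.0180). Fbn1 overlaps the coding gene Gm9913.

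Emilin1 (chromosome 5, 30913402 to 30921277), an elastin-microfibril interface protein, followed another order. It was at 19.7 and 26.2 CPM in Ly6G-low cells, 24.0 and 24.8 CPM in T1-non-binding cells and 47.0 and 49.4 CPM in T1-binding Ly6G-high cells. The T1-binding libraries were the highest, and the other populations overlapped. Emilin1 was 2.10-fold lower in Ly6G-low than in T1-binding cells (log2 fold change -1.07 ± 0.19 SE, adjusted p = 0.00619), a call lost with library totals (-0.50, adjusted p = 0.159), and did not pass against T1-non-binding cells (-0.09 ± 0.19 SE, adjusted p = 0.714), where library totals gave 0.73 and a call (adjusted p = 0.0489). Eln, which encodes elastin itself, had 16 and 29 counts in the Ly6G-low libraries and 5 to 9 in the others. Mfap2 had 0 to 12 counts in any library, Fbln1 2 to 25 and Mfap5 21 to 175, and none of these 4 passed. With library totals Eln passed against T1-binding and T1-non-binding cells (2.23 and 1.76, adjusted p = 0.0212 and 0.0317). Mfap5 then passed against T1-non-binding cells (1.83, adjusted p = 0.0222).

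**Figure D2:**
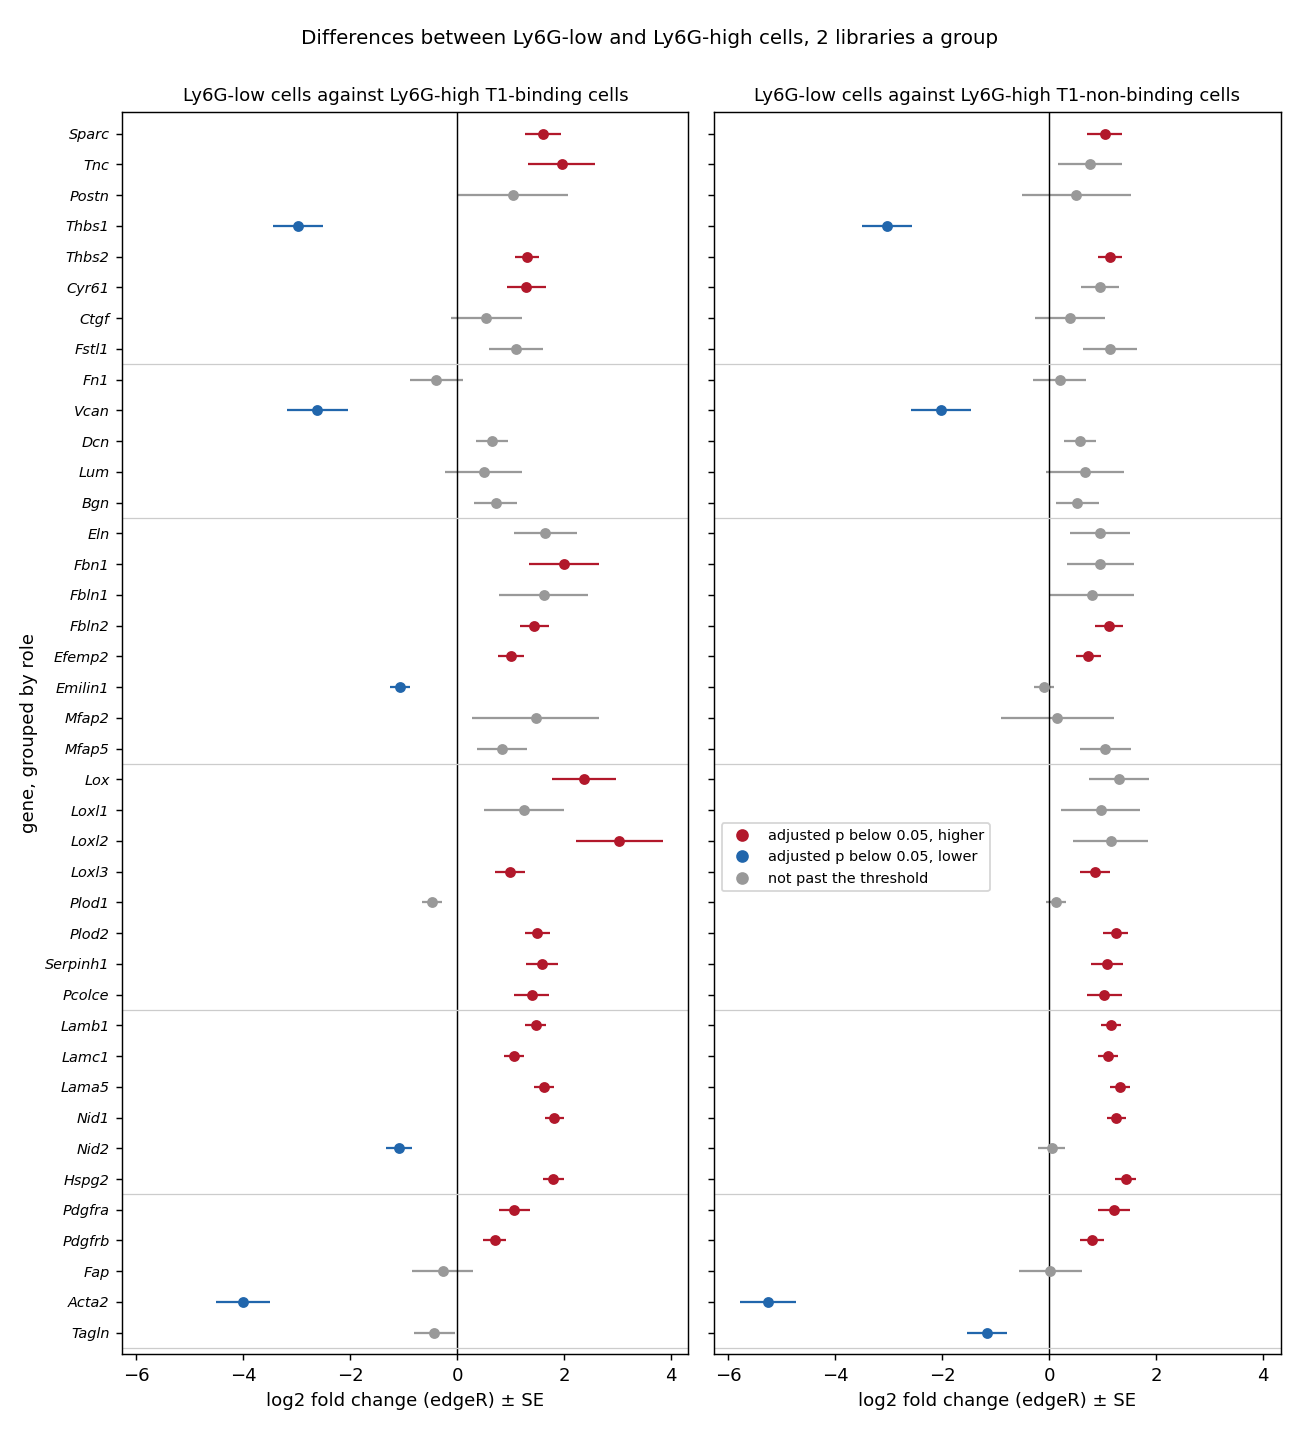
Log2 fold changes of the 40 matrix genes in Ly6G-low cells against each Ly6G-high population, with the SE of the edgeR fit on 2 libraries a group. Red points are higher and blue points lower at an adjusted p below 0.05, and grey points did not pass. The basement membrane genes Lamb1, Lamc1, Lama5, Nid1 and Hspg2 are red in both panels, and Acta2 lies furthest to the left.

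Among cross-linking and collagen-processing genes, 6 of 8 were higher against T1-binding cells and 4 of 8 against T1-non-binding cells, and 0 were lower. Serpinh1 (chromosome 7, 99345376 to 99353239) encodes HSP47, the chaperone of procollagen in the endoplasmic reticulum. It was at 342 and 291 CPM in Ly6G-low cells, 122 and 179 CPM in T1-non-binding cells and 81.7 and 129 CPM in T1-binding Ly6G-high cells. Both Ly6G-low libraries were above the rest, by 3.01-fold against T1-binding cells (log2 fold change 1.59 ± 0.30 SE, adjusted p = 0.00787) and 2.11-fold against T1-non-binding cells (1.07 ± 0.30 SE, adjusted p = 0.0304).

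Pcolce (chromosome 5, 137605103 to 137613784), whose product speeds the removal of the procollagen C-propeptide, was at 470 and 400 CPM in Ly6G-low cells, 170 and 255 CPM in T1-non-binding cells and 124 and 205 CPM in T1-binding cells. It was 2.64-fold and 2.05-fold higher against T1-binding and T1-non-binding cells (adjusted p = 0.0151 and 0.0424, the second 0.0541 with RLE factors), and it overlaps the coding gene Fbxo24. The lysyl hydroxylases, which prepare collagen for cross-links, differed from each other. Plod2 was at 29.0 and 24.9 CPM in Ly6G-low cells, 9.13 and 13.5 CPM in T1-non-binding cells and 10.1 and 8.86 CPM in T1-binding cells, and was 2.83-fold and 2.37-fold higher against T1-binding and T1-non-binding cells (adjusted p = 0.00453 and 0.00889). Plod1 was at 137 and 132, 134 and 113, and 197 and 177 CPM in the same order of populations, and passed in neither comparison (log2 fold change -0.48 ± 0.19 SE, adjusted p = 0.0734 against T1-binding cells). Plod1 was called lower against T1-binding cells by DESeq2 (adjusted p = 0.0287) and by edgeR on the 4 libraries compared (adjusted p = 0.0440). With library totals that difference was 0.11, and the one from T1-non-binding cells was 0.97 and passed (adjusted p = 0.00734).

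The lysyl oxidases, copper enzymes that cross-link collagen and elastin, were led per length by Loxl3. Loxl3 was at 82.8 ± 2.21 CPM in Ly6G-low cells, 45.6 ± 7.98 CPM in T1-non-binding cells and 41.6 ± 16.4 CPM in T1-binding cells (mean ± SD, n = 2). It was 1.99-fold and 1.81-fold higher against T1-binding and T1-non-binding cells (adjusted p = 0.0290 and 0.0487, the second 0.0646 with RLE factors), and it overlaps the coding gene Htra2. Lox itself was uneven between the mice, at 11.5 and 3.64 CPM in Ly6G-low cells, 2.01 and 3.97 CPM in T1-non-binding cells and 1.47 and 1.44 CPM in T1-binding cells. Lox was 5.18-fold higher than in T1-binding cells (adjusted p = 0.0197) and did not pass against T1-non-binding cells (adjusted p = 0.101), but did with the mouse block on those 4 libraries (adjusted p = 0.0281). Loxl2 had 57 and 25 counts in Ly6G-low cells, 10 and 12 in T1-non-binding cells and 1 and 6 in T1-binding cells. It was higher than in T1-binding cells (log2 fold change 3.04 ± 0.81 SE, adjusted p = 0.0237), but did not pass against T1-non-binding cells (1.16, adjusted p = 0.212). The first value was 2.27 without Ly6G-low replicate 1 and 2.29 without T1-binding replicate 1, where the call was lost (adjusted p = 0.147 and 0.123), and 4.64 without T1-binding replicate 2. For Lox it was 1.32 without Ly6G-low replicate 1, with the call lost (adjusted p = 0.112). Loxl1, at 6 to 77 counts, passed in neither comparison.

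Of 6 basement membrane genes, 5 were higher in both comparisons, and the other, Nid2, was lower against T1-binding cells. The median log2 fold changes were 1.54 and 1.21. Lamb1 (chromosome 12, 31265234 to 31329644), for a laminin beta chain, was at 260 and 263 CPM in Ly6G-low cells, 109 and 125 CPM in T1-non-binding cells and 87.1 and 102 CPM in T1-binding Ly6G-high cells. Lamc1, for the gamma chain it pairs with, was at 190 and 217, 89.5 and 99.1, and 105 and 88.8 CPM. Lama5, for an alpha chain, was at 179 and 157, 61.4 and 72.5, and 57.4 and 51.7 CPM. For these 3 laminin genes no Ly6G-low library overlapped a Ly6G-high one, and the fold changes were 2.09 to 3.08 against T1-binding and 2.15 to 2.51 against T1-non-binding cells (adjusted p = 0.00294 to 0.00642).

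Hspg2 (chromosome 4, 137468769 to 137570630), which encodes perlecan, the heparan sulfate proteoglycan of basement membranes, was at 69.8 and 70.1 CPM in Ly6G-low cells, 21.5 and 30.0 CPM in T1-non-binding cells and 19.6 and 20.5 CPM in T1-binding cells. It was 3.49-fold and 2.71-fold higher (log2 fold change 1.80 ± 0.20 SE and 1.44 ± 0.20 SE, adjusted p = 0.00316 and 0.00303). Lamb1, Lama5, Nid1 and Hspg2, with Acta2, are the 5 members past the threshold against T1-non-binding cells that also passed without each of the 6 libraries in turn. Against T1-binding cells 8 members did so, namely these 5 and Thbs2, Fbln2 and Plod2.

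The nidogens, which link laminin to collagen IV, went in opposite directions against T1-binding cells, but not against T1-non-binding cells. Nid1 (chromosome 13, 13437551 to 13512269) was at 34.8 and 29.3 CPM in Ly6G-low cells, 14.0 and 12.9 CPM in T1-non-binding cells and 8.84 and 9.35 CPM in T1-binding Ly6G-high cells, and was 3.52-fold and 2.39-fold higher against T1-binding and T1-non-binding cells (adjusted p = 0.00288 and 0.00316). Nid2 (chromosome 14, 19751265 to 19811787) was at 8.20 and 7.31, 8.16 and 6.92, and 19.7 and 13.3 CPM in the same order. Nid2 was thus highest in the T1-binding Ly6G-high libraries, 2.13-fold lower in Ly6G-low cells than there (log2 fold change -1.09 ± 0.24 SE, adjusted p = 0.0134), a call lost with library totals (-0.49, adjusted p = 0.158). Against T1-non-binding cells it did not pass (0.05 ± 0.25 SE, adjusted p = 0.889) except with library totals (0.89, adjusted p = 0.0237), and it overlaps the coding gene Rtraf.

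The last group held receptors, a protease and contractile proteins used as markers of fibroblasts and mural cells, and its members did not move together. Pdgfra, the receptor for platelet-derived growth factor that marks fibroblasts, was at 10.5 and 13.7 CPM in Ly6G-low cells, 5.83 and 4.67 CPM in T1-non-binding cells and 4.44 and 7.08 CPM in T1-binding cells. It was 2.10-fold and 2.32-fold higher against T1-binding and T1-non-binding cells (adjusted p = 0.0247 and 0.0203). Pdgfrb, the related receptor of pericytes and fibroblasts, was at 26.7 and 27.8, 14.7 and 16.6, and 13.6 and 19.8 CPM, 1.63-fold and 1.74-fold higher (adjusted p = 0.0362 and 0.0284). Fap, the fibroblast activation protease, was near the limit of detection, with 17 and 12 counts in Ly6G-low cells, 8 and 9 in T1-non-binding cells and 16 and 9 in T1-binding cells, and passed in neither comparison.

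Acta2 (chromosome 19, 34241090 to 34255590), which encodes smooth muscle alpha-actin and is the usual marker of myofibroblasts, had the largest difference of the 40 members and in the direction opposite to that of most called members. It was at 4.83 and 2.40 CPM in Ly6G-low cells, 175 and 101 CPM in T1-non-binding cells and 76.1 and 39.8 CPM in T1-binding Ly6G-high cells. All 4 Ly6G-high libraries were above both Ly6G-low libraries, and in each mouse the T1-non-binding library was the highest. Acta2 was 16.04-fold lower in Ly6G-low than in T1-binding cells (log2 fold change -4.00 ± 0.50 SE, adjusted p = 0.00324) and 38.3-fold lower than in T1-non-binding cells (-5.26 ± 0.53 SE, adjusted p = 0.00141). Without Ly6G-low replicate 1 the log2 fold changes were -4.59 and -5.85, both still past the threshold. No other annotated gene overlaps Acta2 in GENCODE M21.

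Tagln, which encodes the actin-binding protein SM22 of the same smooth muscle programme, was low throughout, at 1.58 and 1.39 CPM in Ly6G-low cells, 4.34 and 2.41 CPM in T1-non-binding cells and 2.18 and 1.81 CPM in T1-binding cells. It was 2.24-fold lower than in T1-non-binding cells (log2 fold change -1.17 ± 0.38 SE, adjusted p = 0.0470), a call lost with library totals (-0.29, adjusted p = 0.511) and limma-voom (-1.05, adjusted p = 0.0564), and did not pass against T1-binding cells (adjusted p = 0.386). The other smooth muscle genes measured were near 0, with Myh11 at 0 to 6 counts and Cnn1 at 0 to 5 counts in any library. Tagln overlaps the coding gene Pcsk7, so part of its reads may be shared.

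Ratios between related members within a library do not depend on how libraries are scaled. They were picked after the values had been seen and are given without a test. On the FPKM scale Thbs2 over Thbs1 was 0.566 and 0.297 in the Ly6G-low libraries and 0.0163 to 0.0346 in the 4 Ly6G-high libraries. Nid1 over Nid2 was 3.43 and 3.24 in Ly6G-low cells, 1.38 and 1.50 in T1-non-binding cells and 0.362 and 0.569 in Ly6G-high T1-binding cells, so the nidogen that was the more abundant per length changed between the populations. Plod2 over Plod1 was 0.236 and 0.211 in Ly6G-low cells and 0.0559 to 0.134 in Ly6G-high cells. Acta2 over Tagln was 2.72 and 1.54 in Ly6G-low cells and 19.6 to 37.5 in Ly6G-high cells. By contrast, the laminin ratio Lamc1 over Lamb1 stayed between 0.554 and 0.919 in all 6 libraries.

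**Figure D3:**
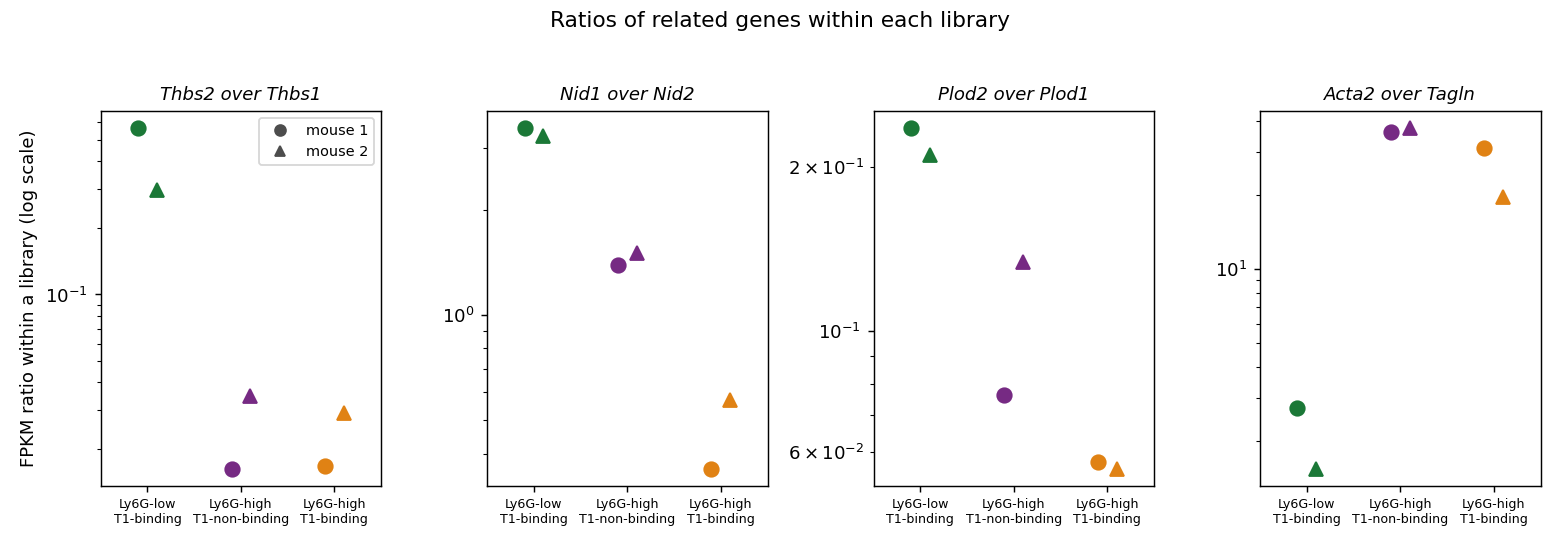
FPKM ratios of 4 pairs of related matrix genes within each library, on log axes, with circles for mouse 1 and triangles for mouse 2. The Ly6G-low libraries are separate from all Ly6G-high libraries in each pair, and Nid1 over Nid2 falls below 1 in the T1-binding Ly6G-high libraries alone.

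Between T1-binding and T1-non-binding Ly6G-high cells no member passed the threshold, nor did any other gene (0% of 13883, with 0.385 as the lowest adjusted p). The unadjusted p was below 0.05 for 5 members. Emilin1 (log2 fold change 0.98 ± 0.19 SE), Nid2 (1.13 ± 0.25 SE) and Plod1 (0.60 ± 0.19 SE) were at higher levels in the T1-binding cells, and Acta2 (-1.26 ± 0.44 SE) and Nid1 (-0.56 ± 0.18 SE) at lower levels, each with an adjusted p of 0.385 to 0.390. DESeq2 called 2 members higher, Emilin1 and Nid2 (adjusted p = 0.0123 and 0.0298), where it called 0.497% of all genes higher and 0.965% lower (1.46% in all).

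With mouse as a block in a fit of the 4 Ly6G-high libraries alone, 5 of 36 tested members were higher and 10 lower, where 13.6% of all genes in that fit were higher and 14.6% lower (28.2% in all). The higher members were Emilin1, Nid2, Vcan, Plod1 and Fn1, with log2 fold changes of 0.58 to 1.15. The lower ones included Acta2 (-1.22 ± 0.10 SE, adjusted p = 9.2e-12), Sparc (-0.50 ± 0.09 SE, adjusted p = 6.95e-05) and Serpinh1 (-0.47 ± 0.09 SE, adjusted p = 0.000146), and the other 7 had log2 fold changes of -0.26 to -0.96. Such a fit leaves 1 residual degree of freedom. An edgeR fit with the block over all 6 libraries called 0 members and no other gene either, with 0.0570 as the lowest adjusted p. All 11 macrophage genes checked were at a higher and all 12 neutrophil genes at a lower fitted level in the T1-binding cells, 0 of them past the threshold, and their part in the matrix differences was not tested. Within mouse 1, 30 of 40 members were at a lower level in the T1-binding cells, and within mouse 2, 26 were. The share of all tested genes at a lower level there within each mouse is not given here, so these counts have no background.

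Levels in the Ly6G-high populations also differed by animal. In T1-non-binding cells 29 of 40 members were at a higher level in mouse 2 than in mouse 1 (median log2 difference 0.40), against 44.4% of all tested genes (median -0.08). In Ly6G-high T1-binding cells 25 of 40 were (median 0.49), against 50.9% of all tested genes (median 0.01). In Ly6G-low cells 15 of 40 were (median -0.11), against 51.5% of all tested genes. With 1 library for each mouse and population these differences between animals have no replicate and no test.

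Matrix genes outside the 40 also differed in both directions. Of 87 such genes in 5 lists, 65 were tested. Against T1-binding cells 25 (38.5%) were higher and 10 (15.4%) lower, where 18.8% and 24.3% of all tested genes were. Against T1-non-binding cells 21 (32.3%) were higher and 9 (13.8%) lower, where 16.1% and 23.8% of all tested genes were. Among microfibril genes, Ltbp1, which stores latent TGF-beta in the matrix, was at 703 ± 19.8 CPM in Ly6G-low cells (mean ± SD, n = 2) against 223 ± 31.7 CPM in T1-binding cells (3.15-fold higher, adjusted p = 0.00450). Emilin2, the paralogue of Emilin1, was at 214 ± 41.2 against 2062 ± 890 CPM (9.64-fold lower, adjusted p = 0.00413). Among basement membrane genes, the laminin chain gene Lama3 was 6.38-fold higher (adjusted p = 0.00324) and Lamb3 28.2-fold lower (adjusted p = 0.00365).

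Among proteoglycans, Gpc1, a glypican, was 2.42-fold higher than in T1-binding cells (adjusted p = 0.00388), and Sdc2, a syndecan, 2.11-fold higher than in T1-non-binding cells (adjusted p = 0.0173). Srgn, which encodes serglycin, the proteoglycan of leukocyte granules, was 19.5-fold lower than in T1-binding cells (adjusted p = 0.00316). Among matricellular and growth-factor-binding genes, Igfbp6 was 2.51-fold higher (adjusted p = 0.00960) and Tgfbi 6.30-fold lower (adjusted p = 0.00359). Among cross-linking and processing genes, Adamts14, a procollagen N-propeptidase, was 3.29-fold higher (adjusted p = 0.00642) and Tgm2, a transglutaminase, 4.41-fold lower (adjusted p = 0.00574). Against T1-non-binding cells the called genes with the smallest p in the higher direction were P4ha2, a subunit of prolyl hydroxylase (1.89-fold, adjusted p = 0.0160), and Lamb2 (2.04-fold, adjusted p = 0.00621) in their lists. Of 9 collagen genes, 6 were higher against T1-binding and 4 against T1-non-binding cells, with Col4a2 at 2.54-fold and Col6a1 at 2.03-fold. These are 66.7% and 44.4%, where 18.8% and 16.1% of all tested genes were higher.

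The summed level of all 40 members was 6376 and 6032 CPM in the Ly6G-low libraries and 6240 to 10153 CPM in the Ly6G-high libraries, with the populations overlapping. Fn1 and Thbs1 made up much of it. Without them the sum of the other 38, a choice made after the values were seen, was 3837 and 3557 CPM in Ly6G-low and 1645 to 2322 CPM in Ly6G-high libraries. Lists of markers of other cells were summed in the same way. The 18 fibroblast and mural markers outside the members summed to 3777 and 3269 CPM in Ly6G-low and 2490 to 2656 CPM in Ly6G-high libraries. The list includes Vim and S100a4, which are not confined to these cells, and their part of the sum is not given here. Against T1-binding cells 5 of 15 tested (33.3%) were higher and 2 (13.3%) lower, where 18.8% and 24.3% of all tested genes were. Against T1-non-binding cells 4 (26.7%) were higher and 1 (6.67%) lower, where 16.1% and 23.8% of all tested genes were. Tcf21 had no count in any library. The 12 epithelial and tumour markers summed to 236 and 218 CPM in Ly6G-low and 108 to 151 CPM in Ly6G-high libraries. In each comparison 2 of 7 tested (28.6%) were higher, where 18.8% and 16.1% of all tested genes were. Against T1-binding cells 1 (14.3%) was lower, where 24.3% of all tested genes were. As single genes these markers did not go one way, with 4 of 7 log2 fold changes above 0 against T1-binding and 3 of 7 against T1-non-binding cells (medians 0.99 and -0.09). Krt20 and Krt18 were the higher ones, Epcam had 3 to 30 counts, and Esrp1 had no count in any library.

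The sums of the leukocyte lists were lower in Ly6G-low cells. The 11 macrophage genes summed to 1748 and 3435 CPM in Ly6G-low, 5697 and 5407 CPM in T1-non-binding and 10885 and 11636 CPM in Ly6G-high T1-binding libraries. All 11 passed the threshold as lower against T1-binding cells, but only 4 (36.4%) did against T1-non-binding cells. Of all tested genes 24.3% and 23.8% were lower in these comparisons. The 12 neutrophil genes summed to 350 and 198 CPM in Ly6G-low and 9866 to 40006 CPM in Ly6G-high libraries, and all 12 passed as lower in both comparisons. The 12 endothelial genes summed to 23.6 and 18.5 CPM in Ly6G-low and 57.9 to 132 CPM in Ly6G-high libraries. Pecam1, which leukocytes also express, was at a mean of 7.40 CPM in Ly6G-low, 78.7 CPM in T1-non-binding and 53.1 CPM in T1-binding Ly6G-high libraries. Against T1-binding cells 2 of 11 tested were higher (Emcn and Tek) and 3 lower (Pecam1, Kdr and Vwf), with 7 log2 fold changes above 0 and a median of 0.59. These are 18.2% and 27.3%, near the 18.8% and 24.3% of all tested genes. Against T1-non-binding cells 0 were higher and the same 3 lower, with a median of -0.61, where 16.1% and 23.8% of all tested genes were. The 8 platelet genes, which include the macrophage-expressed Pf4, summed to 201 and 175 CPM in Ly6G-low and 268 to 1335 CPM in Ly6G-high libraries. The part of other cells in the differences of the matrix genes was not tested.

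**Figure D4:**
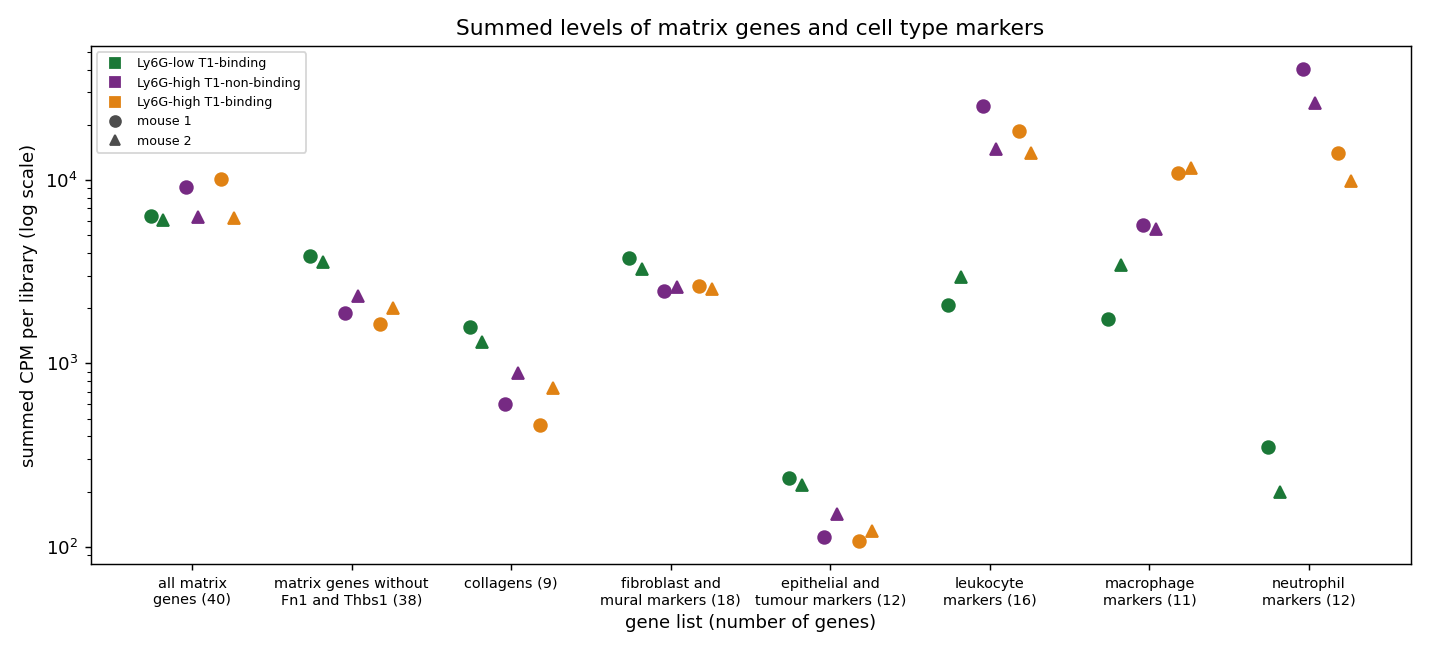
Summed CPM per library, on a log axis, of all 40 matrix genes, of 38 without Fn1 and Thbs1, of 9 collagens and 5 lists of cell type markers, with colours for the populations and circles and triangles for mouse 1 and mouse 2. The sums of 38 matrix genes, of collagens and of epithelial markers are highest in the Ly6G-low libraries, the sum of all 40 overlaps between populations, and the leukocyte, macrophage and neutrophil sums are lowest there.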

How the data were processed

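The authors deposited raw read counts per gene and, in a second column, FPKM, per the file headers. The FPKM values follow from these counts, a gene length and the library total. TopHat, STAR 2.5 and HTSeq 0.6.1 are named with mm10 in the submitters' processing notes, without role or order. The strand setting is not given in the sources used here, and 20 of the 40 members overlap another GENCODE M21 gene, 6 of them a coding one.

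Counts were filtered with filterByExpr, scaled by TMM and tested by edgeR 4.0.16 (quasi-likelihood, robust, R 4.3.3) on all 6 libraries with group as the only term, leaving 3 residual degrees of freedom. P-values were adjusted by Benjamini-Hochberg over 13883 genes. FPKM served for levels between genes. TMM factors ran from 0.653 to 1.40. In counts simulated for the T1-binding against T1-non-binding comparison (13616 genes), 52 of the genes changed 2-fold and 98 of those changed 4-fold were recovered, of 100 each. For Ly6G-low cells the numbers were 44 and 99 against T1-binding cells, and 45 and 96 against T1-non-binding cells. In the same order of comparisons, 7 of 157, 7 of 150 and 3 of 144 calls were false. The simulation had no mouse effect and took the spread from the trend over all genes, not from each gene. It changed only genes with higher counts. Its shares therefore need not hold for the real libraries or for members with few counts.

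Same-numbered libraries come from the same mouse, per the labels. Deviations from the group mean correlated at 0.51 between the Ly6G-high populations of a mouse, and at -0.04 and -0.01 with Ly6G-low cells. Libraries of a group come from different mice.

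Alternatives were the mouse block, the compared groups alone, RLE factors, library totals, DESeq2 1.42.0, limma-voom 3.58.1, other filters and each library left out. The members, lists and tests were chosen with earlier results of these data known. Levels in every library are given for the 3 members of each role with the highest mean FPKM, for called members opposite in direction to most called ones, for the mesenchymal markers and for the 3 highest and 3 lowest called fold changes, and others were added after their values were seen.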

Additional observations from a re-analysis of the deposited data

How the results depend on the processing

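The counts of members past the threshold stayed within 1.5 times of those reported for the Ly6G-low comparisons under the mouse block (replicate block) on all 6 libraries, on 4 libraries with or without the block, with RLE factors, DESeq2, limma-voom and other filters. The exceptions were library totals, with 3 lower against T1-binding and 27 higher against T1-non-binding cells, where the median of all genes was 0.61 and 0.91 and that of the members 1.64 and 1.67, so 1.03 and 0.75 above it. With each library left out, 8 to 24 members were higher and 1 to 6 lower against T1-binding cells, and 5 to 17 higher and 1 to 4 lower against T1-non-binding cells. Between the Ly6G-high populations the count of 0 became 5 higher and 10 lower with the replicate block on 4 libraries, where 13.6% and 14.6% of all genes were. It became 2 higher with DESeq2, where 0.497% of all genes were higher. Without a filter it became 2 higher, and the share of all genes in that fit is not given here. The cause of these moves was not tested.

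Signs turned in differences that had not passed. With library totals these were, against T1-binding cells, Fn1 (0.24), Plod1 (0.11), Fap (0.33) and Tagln (0.16), and against T1-non-binding cells Emilin1 (0.73, adjusted p = 0.0489). Against T1-non-binding cells Fap was -0.0129 with the replicate block on 6 libraries, -0.0593 with it on 4, -0.0278 on 4 libraries without it, -0.0453 with RLE factors, -0.0552 with DESeq2 and -0.000503 with limma-voom, and Nid2 was -0.00885, -0.00578, -0.0234 and -0.0237 with the block on 4 libraries, without it, with RLE factors and with DESeq2. With libraries left out, log2 fold changes ranged against T1-binding cells from -0.13 to 1.44 for Ctgf, -0.97 to 0.36 for Fn1, -0.22 to 1.89 for Lum and -0.72 to 0.21 for Fap. Against T1-non-binding cells they ranged from -0.25 to 1.46 for Ctgf, -0.34 to 0.10 for Emilin1, -0.0709 to 0.16 for Nid2, -0.29 to 0.29 for Fap, -0.21 to 2.26 for Postn, -0.65 to 5.98 for Mfap2 and -0.19 to 0.73 for Fn1. Between the Ly6G-high populations they ranged from -2.04 to 0.20 for Fbn1, -0.75 to 0.0800 for Cyr61, -0.18 to 1.52 for Vcan and -0.16 to 1.15 for Fn1. A count of 0 allows up to 0.107 to 0.127 CPM of a library total, for counting error only.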
